A study of Mus musculus with 6 samples.

Results

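The Hoxb cluster genes are the 10 genes Hoxb1 to Hoxb9 and Hoxb13, taken as the rows of the deposited table that carry these symbols, and all 10 were found among the 29955 genes of the table. RNA-seq values were compared between 3 libraries of Rnf40+/+ and 3 libraries of Rnf40-/- mouse embryo fibroblasts (MEFs), all at passage 3. MEFs are fibroblasts grown out of mouse embryos and can come from many body levels at once. By the study's methods, its MEFs came from embryos of a single age, in mid-gestation. Which parts of the embryos were used is not given in the sources used here. In the Rnf40-/- MEFs, exons 3 and 4 of both Rnf40 alleles were flanked by loxP sites and removed by Cre-ERT2, a recombinase made in all cells from the Rosa26 locus and switched on by 4-hydroxytamoxifen (4-OHT). These cells received 250 nM 4-OHT for 5 days and were then kept for 3 days without it. The study's methods describe its MEFs as coming from embryos homozygous for the loxP allele and carrying Cre-ERT2, and name no other source for the Rnf40+/+ MEFs. Whether the Rnf40+/+ MEFs received 4-OHT is not given in the sources used here, so genotype and treatment cannot be told apart. The labels do not say that replicates came from separate embryos or cultures, and p-values then measure only the spread between these libraries.

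HOX genes encode homeodomain transcription factors that give cells along the body axis their positional identity, and mammals carry them in the clusters Hoxa, Hoxb, Hoxc and Hoxd. Genes with low paralog numbers lie at the 3′ end of a cluster and are switched on early and far forward in the embryo, whereas genes with high numbers lie at the 5′ end and act later and further back. Cultured fibroblasts keep much of the HOX pattern of the place they came from. RNF40 forms with RNF20 the ligase that attaches ubiquitin to histone H2B, a mark linked to methylation of histone H3 by MLL/Trithorax-type complexes, which hold HOX genes active, while Polycomb complexes hold them silent.

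In mm9 all 10 genes are read from the plus strand of chromosome 11, and they span bases 96055630 to 96229570, a stretch of 173.9 kb. The 9 genes Hoxb9 to Hoxb1 fill 96.8 kb, and Hoxb13 lies 74009 bases further 5′. Reads could not be assigned with the same certainty to each gene. The annotated exons of Hoxb7 and Hoxb8 share 1069 bases on the same strand, which are 26.2% of the exon length of Hoxb7 and 40.4% of that of Hoxb8. The antisense gene Hoxb3os, which has no row in the table, runs across 49.4% of the exon bases of Hoxb2 and 37.9% of those of Hoxb3. The kit marks strand, but whether strand was used in counting is not given in the sources used here, so the values of these 4 genes are uncertain by the share of reads in the overlaps.

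Promoter sequences in RefSeq (GRCm38.p6, 250 bases before to 50 after the gene start) were at hand for 3 members, Hoxb1, Hoxb4 and Hoxb8. They are printed because these genes stand for the near-silent 3′ end of the cluster (Hoxb1) and for members whose RNA was lower in Rnf40-/- MEFs (Hoxb4 and Hoxb8). Each is written 5′ to 3′ on the plus strand with CG dinucleotides in capitals, at chr11:96365508-96365807, chr11:96318017-96318316 and chr11:96281655-96281954.
Hoxb1: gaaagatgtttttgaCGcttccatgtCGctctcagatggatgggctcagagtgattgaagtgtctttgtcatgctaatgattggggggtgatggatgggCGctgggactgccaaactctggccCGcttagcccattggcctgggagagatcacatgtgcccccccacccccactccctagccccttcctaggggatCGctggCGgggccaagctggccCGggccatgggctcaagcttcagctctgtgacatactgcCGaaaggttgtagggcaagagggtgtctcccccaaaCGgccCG
Hoxb4: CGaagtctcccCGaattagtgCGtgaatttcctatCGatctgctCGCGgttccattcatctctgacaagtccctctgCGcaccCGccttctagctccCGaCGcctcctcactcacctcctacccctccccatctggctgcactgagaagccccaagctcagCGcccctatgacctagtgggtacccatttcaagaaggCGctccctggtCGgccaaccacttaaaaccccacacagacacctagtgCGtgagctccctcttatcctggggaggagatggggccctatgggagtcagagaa
Hoxb8: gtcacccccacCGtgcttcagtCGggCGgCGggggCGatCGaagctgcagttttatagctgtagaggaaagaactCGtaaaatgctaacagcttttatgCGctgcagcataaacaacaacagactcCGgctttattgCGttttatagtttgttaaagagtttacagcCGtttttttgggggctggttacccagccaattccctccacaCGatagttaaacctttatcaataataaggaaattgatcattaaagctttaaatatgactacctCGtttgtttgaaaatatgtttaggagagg
The window of Hoxb1 held 10 CG dinucleotides, that of Hoxb4 held 14 and that of Hoxb8 held 13. Of 32851 promoters of the same length, 43.5% held at least as many as Hoxb1, 36.3% as many as Hoxb4 and 37.9% as many as Hoxb8, so that none of the 3 was unusually rich in CG. Hoxb8 had the lowest share of G and C, 42.3% against 59.3% for Hoxb1 and 58.0% for Hoxb4. The letters TTTAT, the core of the sites bound by CDX factors, which switch on HOX genes in the trunk, were searched on both strands. They occurred 6 times in the Hoxb8 window and in neither other window, whereas 40.0% of all promoters held at least 1 match and 0.502% held 6 or more. These promoters were not matched for the share of G and C, which was low in the Hoxb8 window. A match is a description of the sequence and no evidence of binding.

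The libraries held 17053436 to 26344170 reads in Rnf40+/+ and 18115481 to 20495627 in Rnf40-/- MEFs. Values are normalized counts, that is, the reads on a gene over the size factor of its library, and 3 reads, taken as the limit of detection, corresponded to 2.40 to 3.58 normalized counts. Rnf40 itself stood at 1278, 1195 and 1096 in Rnf40+/+ and at 439, 519 and 487 in Rnf40-/- MEFs, a log2 fold change of -1.30 (SE 0.09, adjusted p = 4.25e-07 from limma). Rnf40+/+ replicate 1 stood apart from the other 5 libraries in the muscle actin gene Actc1, with 937 normalized counts against at most 10.2 elsewhere. It also had 81.2 of the Y-linked gene Ddx3y against at most 7.14. In the macrophage gene Lyz2 Rnf40+/+ replicate 3 stood highest, with 7440 against at most 4557 elsewhere. Over all genes, Rnf40+/+ replicate 3 was the furthest from its group (chi-square per gene of 25.9 and 28.8, against 8.35 between the other two). Fibroblast markers were high in every library, with a summed level of 669378 to 741256 in Rnf40+/+ and 400372 to 403300 in Rnf40-/- MEFs. By an adjusted p under 0.05 from limma 8 of the 9 were lower in Rnf40-/- MEFs, against 24.1% of all genes tested. The call of Vim was lost with any library but Rnf40+/+ replicate 3 left out (-0.30 to -0.21, adjusted p up to 0.179 from limma). The summed level of endothelial markers was 138 to 279 in Rnf40+/+ and 225 to 315 in Rnf40-/- MEFs, that of macrophage and blood markers 4765 to 8672 and 3069 to 3347, that of epithelial markers 30.6 to 86.0 and 43.8 to 62.2, that of neural markers 1315 to 2718 and 1329 to 1528, and that of muscle markers 124 to 1370 and 28.2 to 48.2, with Myod1 at 0 in all. The part of such cells in the results was not tested, and fewer cells with a gene on and less RNA per cell cannot be told apart in bulk samples.

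In Rnf40+/+ MEFs Hoxb9 stood far above the rest of the cluster, and the outermost genes Hoxb1 and Hoxb13 were close to silent. Levels of different genes were set side by side per kb of annotated exon. Hoxb9, the most 5′ gene of the main block, had 743 ± 44.3 normalized counts per kb (SD, n = 3), followed by Hoxb8 (312 ± 39.1), Hoxb3 (302 ± 32.0) and Hoxb6 (287 ± 9.50). Hoxb2 followed with 201 ± 7.53, and Hoxb7, Hoxb5 and Hoxb4 had 103 ± 3.38, 102 ± 7.31 and 91.8 ± 0.348. Hoxb1 and Hoxb13, the outermost genes, had 6.77 ± 2.65 and 1.55 ± 1.64. In this order the ranges of Hoxb8, Hoxb3 and Hoxb6 overlapped from each to the next, as did those of Hoxb7 and Hoxb5, and all other neighbours in the order were apart in all 3 libraries. The order of the middle ranks depends on the length used. Per kb of coding sequence Hoxb6 (887) stood above Hoxb3 (700), Hoxb7 (645) above Hoxb2 (625) and Hoxb4 (508) above Hoxb5 (354), while Hoxb9, Hoxb8, Hoxb1 and Hoxb13 held their ranks.

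**Figure D1:**
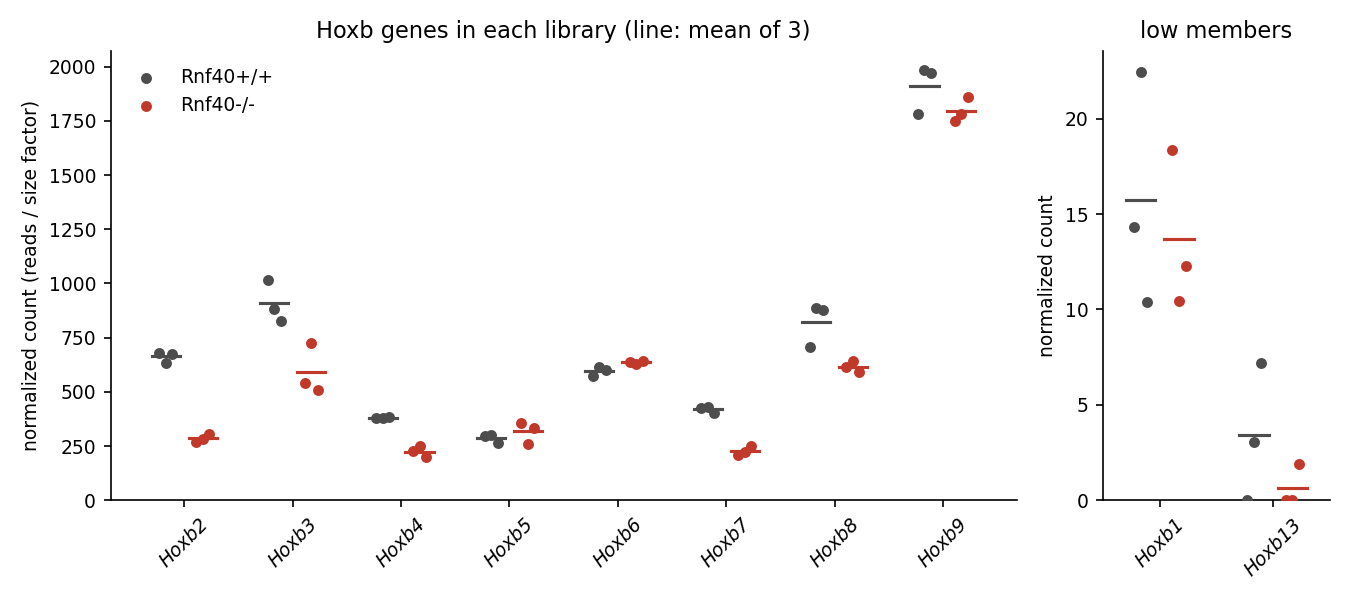
Normalized counts (reads divided by the size factor of the library) of the Hoxb genes in each of the 6 libraries, with points for libraries, a line for the mean of 3, grey for Rnf40+/+ and red for Rnf40-/- MEFs. Hoxb2, Hoxb3, Hoxb4, Hoxb7 and Hoxb8 lie lower in all 3 Rnf40-/- libraries, Hoxb5 and Hoxb9 overlap, and Hoxb1 and Hoxb13, on an axis of their own, have few counts.

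The question was how the RNA of each member changed when Rnf40 was deleted. Of the 9 members with enough reads to be tested, 5 were lower in Rnf40-/- MEFs (Hoxb2, Hoxb3, Hoxb4, Hoxb7 and Hoxb8) and 0 were higher, by an adjusted p under 0.05 from limma with Benjamini-Hochberg adjustment over 16378 genes. Among all genes tested 24.1% were lower and 23.3% higher by the same rule. Hoxb13 had too few reads for a test. The median log2 fold change of the 9 members was -0.41, against -0.0035 over all genes tested. At an unadjusted p under 0.05 the members called were those same 5, against 27.5% of all genes lower and 26.4% higher, and edgeR and DESeq2 on the recovered reads also gave 5 lower and 0 higher. Without Rnf40+/+ replicate 1, and without Rnf40+/+ replicate 3, the counts were again 5 and 0. The ranges of the genotypes did not overlap for 6 members, 5 of them lower and 1 (Hoxb6) higher, where 28.7% and 27.8% of all genes tested had such separate ranges in each direction.

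Hoxb1, the most 3′ gene and in the embryo a gene of the hindbrain, was close to silent. Its normalized counts were 14.3, 22.4 and 10.4 in Rnf40+/+ and 18.4, 10.4 and 12.3 in Rnf40-/- MEFs, from 10 to 22 reads per library. The groups overlapped throughout, and the log2 fold change of -0.16 (95% interval -1.05 to 0.73, adjusted p = 0.775 from limma) has too wide an interval to show a change or its absence.

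Hoxb2, which patterns the hindbrain and the second branchial arch, showed the largest fall in the cluster. It had 681, 635 and 676 normalized counts in Rnf40+/+ MEFs and 269, 283 and 307 in Rnf40-/- MEFs. The highest Rnf40-/- library thus stayed far below the lowest Rnf40+/+ library, and 43.1% of the mean was left. The log2 fold change was -1.21 (SE 0.09, adjusted p = 8.30e-07 from limma), and 4.18% of all genes tested fell more. Hoxb2 was also the single member past the criteria of the study (mean above 15, p under 0.05, and a log2 fold change of over 1 in size). These were applied here to limma values, where the study used DESeq, and 5.7% of all genes met them in this direction.

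Hoxb3, which acts in the hindbrain, neck and pharynx, had 1015, 884 and 827 normalized counts in Rnf40+/+ and 539, 723 and 507 in Rnf40-/- MEFs. Its Rnf40-/- replicate 2 stood above the other two but below each Rnf40+/+ library. The log2 fold change was -0.64 (SE 0.13, adjusted p = 0.00142 from limma), with 64.9% of the mean left.

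Hoxb4, known for promoting the expansion of blood stem cells, was the most even member among Rnf40+/+ libraries, with 380, 380 and 383 normalized counts. It had 226, 249 and 198 in Rnf40-/- MEFs, so that no library of one genotype reached the other. The log2 fold change was -0.77 (SE 0.11, adjusted p = 0.000149 from limma), with 59.0% of the mean left.

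Hoxb5 and Hoxb6, which lie side by side in the middle of the cluster and act at the level of the forelimb and thorax, did not pass the test. Hoxb5 had 296, 299 and 262 normalized counts in Rnf40+/+ and 358, 261 and 332 in Rnf40-/- MEFs, with overlapping groups and a log2 fold change of 0.14 (95% interval -0.14 to 0.42, adjusted p = 0.401 from limma). Hoxb6 had 574, 613 and 601 in Rnf40+/+ and 636, 630 and 643 in Rnf40-/- MEFs. The ranges of Hoxb6 were separate, but the difference was small, with a log2 fold change of 0.09 (95% interval -0.07 to 0.26, adjusted p = 0.335 from limma). Both intervals exclude a fall of the size seen at Hoxb8.

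Hoxb7, a homeodomain factor of the trunk, had 426, 429 and 404 normalized counts in Rnf40+/+ and 210, 220 and 252 in Rnf40-/- MEFs. This was the second largest fall, with widely separate groups, 54.2% of the mean left and a log2 fold change of -0.89 (SE 0.11, adjusted p = 3.36e-05 from limma). Hoxb8, which acts in the trunk and is known as a factor that keeps myeloid progenitors dividing, had 705, 888 and 879 in Rnf40+/+ and 613, 641 and 593 in Rnf40-/- MEFs. Rnf40+/+ replicate 1, the library with the most Actc1 and Ddx3y RNA, was the lowest of its group for Hoxb8 but still above all Rnf40-/- libraries. The log2 fold change of Hoxb8 was -0.41 (SE 0.10, adjusted p = 0.00421 from limma), and with 1 library left out it ranged from -0.52 (adjusted p = 0.00031, without Rnf40+/+ replicate 1) to -0.35 (adjusted p = 0.0245, without Rnf40+/+ replicate 2, both from limma). Reads in the exon bases that Hoxb7 and Hoxb8 share could belong to either gene.

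Hoxb9, a thoracic gene and the highest of the cluster, had 1781, 1984 and 1971 normalized counts in Rnf40+/+ and 1750, 1783 and 1859 in Rnf40-/- MEFs. The groups overlapped through Rnf40+/+ replicate 1, and the log2 fold change was -0.09 (95% interval -0.24 to 0.06, adjusted p = 0.314 from limma). Hoxb13, a gene of the tail end of the embryo and of the prostate, had 0, 3.06 and 7.19 normalized counts in Rnf40+/+ and 0, 0 and 1.89 in Rnf40-/- MEFs, from 12 and 2 reads in all. Only 1 library, Rnf40+/+ replicate 3, was clearly above the limit of detection, and no fold change is given.

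**Figure D2:**
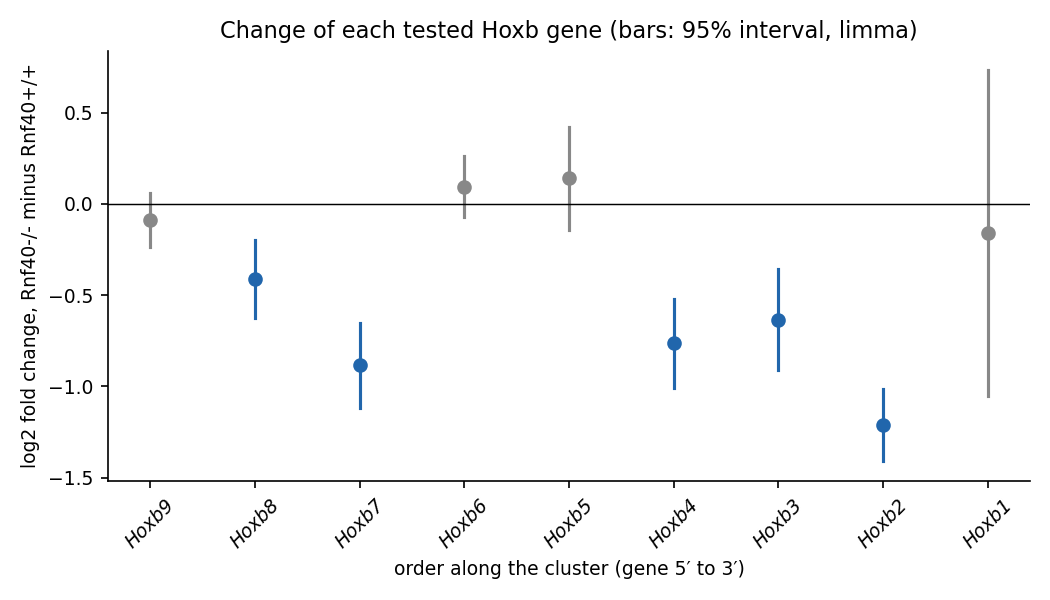
Log2 fold change (Rnf40-/- minus Rnf40+/+, limma) of the 9 tested Hoxb genes in their order along the cluster from Hoxb9 (5′) to Hoxb1 (3′), with 95% intervals as bars and blue for an adjusted p under 0.05. The lower genes form 2 stretches, Hoxb8 with Hoxb7 and Hoxb4 with Hoxb3 and Hoxb2, with Hoxb5 and Hoxb6 between them at 0.14 and 0.09.

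Along the cluster the 5 lower genes formed 2 stretches, Hoxb8 to Hoxb7 and Hoxb4 to Hoxb2, which were separated by Hoxb6 and Hoxb5. Of these 5, only Hoxb4 is free of the exon overlaps given above. Hoxb8 and Hoxb7 share exon bases, and Hoxb3os runs across exons of both Hoxb2 and Hoxb3. These neighbours may thus not be independent of each other, and the part of reads in the overlaps was not tested. Hoxb9 lay on the 5′ side with a narrow interval, whereas the interval of Hoxb1 on the 3′ side holds falls as large as those of Hoxb3 and Hoxb4 and does not place it on either side. The summed normalized count of all 10 members was 6010 ± 134 in Rnf40+/+ and 4709 ± 90.4 in Rnf40-/- MEFs (SD, n = 3 each), or 78.3% of the Rnf40+/+ level. The sum of Hoxb1 to Hoxb4 was left at 56.6%, that of Hoxb5 to Hoxb8 at 84.5%, and that of Hoxb9 and Hoxb13 at 93.9%. Hoxb2 made up 29.0% of the net fall and Hoxb3 24.5%, while Hoxb5 and Hoxb6 went the other way with -2.41% and -3.10%.

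The make-up of the cluster moved accordingly. Per kb of exon, the share of Hoxb9 was 34.5% ± 1.22 in Rnf40+/+ and 39.9% ± 1.17 in Rnf40-/- MEFs (SD, n = 3 each). The share of Hoxb6 was 13.4% ± 0.0832 and 17.5% ± 0.383, and that of Hoxb2 was 9.36% ± 0.581 and 4.95% ± 0.305. Both Hoxb9 and Hoxb6 thus took more of a smaller total. The difference was 5.38 percentage points for Hoxb9, 4.17 for Hoxb6 and -4.41 for Hoxb2, each several times the spread between replicates. Shares are a description without a test.

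**Figure D3:**
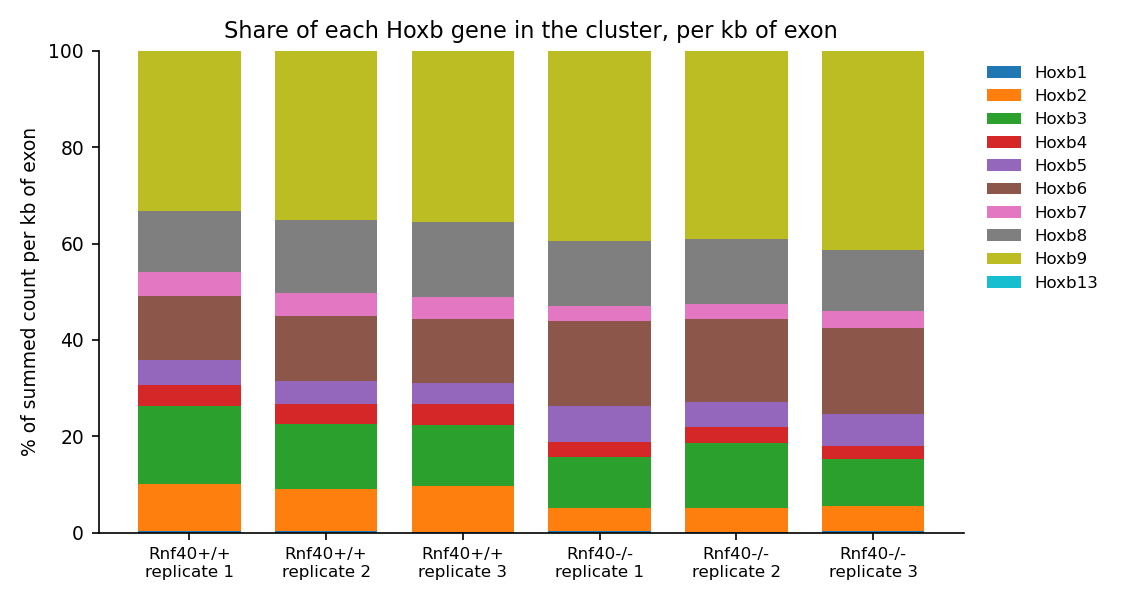
Share of each Hoxb gene in the summed normalized count per kb of annotated exon, as stacked bars in percent for each of the 6 libraries. Hoxb9 takes the largest share in every library, with a mean of 34.5% in Rnf40+/+ and 39.9% in Rnf40-/- MEFs, and the orange band of Hoxb2 narrows from 9.36% to 4.95%.

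Neighbouring genes were then compared within each library by the log2 ratio of their normalized counts, each plus 1. Apart from this added 1, the ratio does not depend on the scaling between libraries. Of 8 pairs of tested neighbours, 6 had ratios that did not overlap between genotypes. Among 13806 pairs of neighbouring tested genes over the genome this held for 56.8%, and the median absolute change of the ratio was 0.50 there and 0.52 in the Hoxb cluster, so neighbours in the cluster parted about as much as neighbours elsewhere. The Hoxb7 to Hoxb6 ratio was -0.43, -0.51 and -0.57 in Rnf40+/+ and -1.59, -1.51 and -1.35 in Rnf40-/- MEFs, a change of -0.98. At the other border, the Hoxb5 to Hoxb4 ratio was -0.36, -0.35 and -0.54 in Rnf40+/+ and 0.66, 0.06 and 0.74 in Rnf40-/- MEFs, a change of 0.90. The largest change, -1.05, was that of the Hoxb2 to Hoxb1 ratio, at 5.5, 4.8 and 5.9 in Rnf40+/+ and 3.8, 4.6 and 4.5 in Rnf40-/- MEFs. This pair was barely separate and rests on 10 to 22 reads of Hoxb1 per library. The size of a ratio also holds the lengths of the 2 genes, and only its change is read here. The ratio of Hoxb6 to Hoxb5 was 1.06 ± 0.12 and 1.02 ± 0.23 and that of Hoxb4 to Hoxb3 was -1.25 ± 0.16 and -1.38 ± 0.14 (SD, n = 3 each), and these were the 2 pairs that overlapped. The exact permutation test, two-sided, gave p = 0.1 for each of the 6 separate pairs, the smallest value that 3 libraries against 3 can give (adjusted p = 0.133 over 8 pairs), and p = 0.7 and p = 0.4 for the other two, so no pair could pass a threshold of 0.05.

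**Figure D4:**
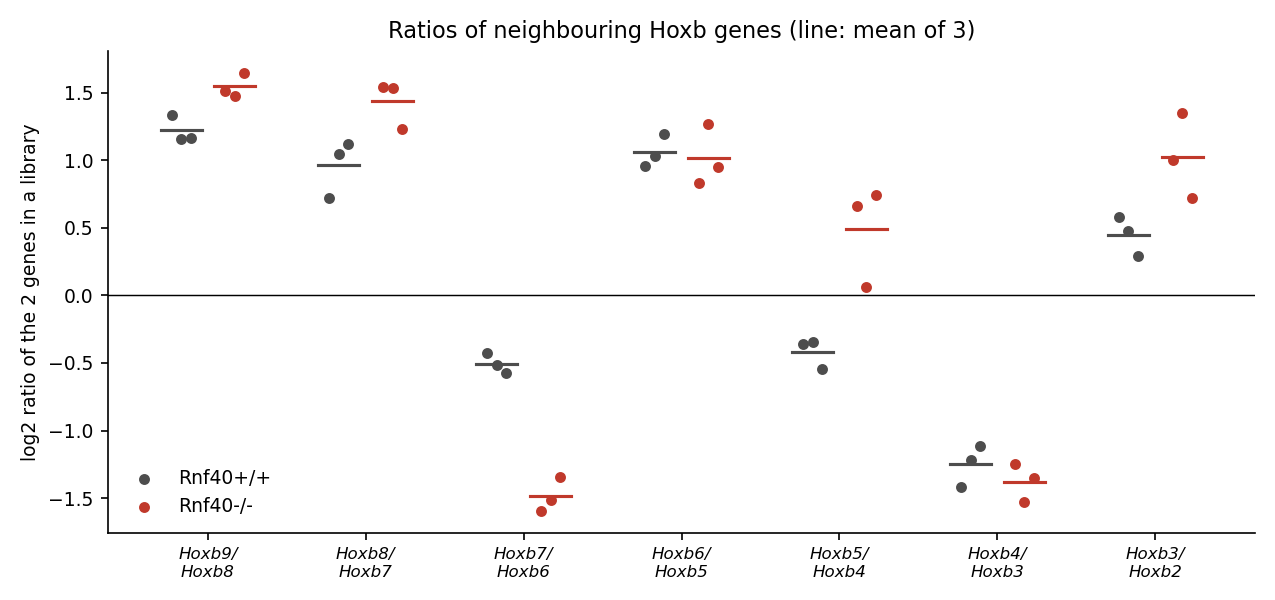
Log2 ratio of the normalized counts of neighbouring Hoxb genes in each library, for the 7 pairs from Hoxb9 to Hoxb2, with points for libraries and a line for the mean of 3 (grey Rnf40+/+, red Rnf40-/-). The ratios to either side of the Hoxb6 and Hoxb5 pair are separate between genotypes, that of Hoxb7 to Hoxb6 by -0.98 and that of Hoxb5 to Hoxb4 by 0.90, whereas Hoxb6 to Hoxb5 and Hoxb4 to Hoxb3 overlap.

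Genes of the same paralog number in the other clusters derive from a common ancestor and share much of their function. In the Hoxa cluster 2 of 10 tested genes were higher and 1 lower (median 0.00062), in the Hoxc cluster 1 of 7 was higher and 4 lower (median -0.26), and in the Hoxd cluster 0 of 5 were higher and 1 lower (median -0.34). The extremes were Hoxa11 (0.50, adjusted p = 0.0294) and Hoxa3 (-0.69, adjusted p = 0.000537), Hoxc13 (1.71, adjusted p = 3.50e-06) and Hoxc6 (-1.31, adjusted p = 6.08e-08), and Hoxd8 (-0.41, adjusted p = 0.0174), all from limma. Counted over the 4 clusters, 11 of the 20 tested genes with paralog numbers 2 to 8 were lower and 0 higher. Of these 20 genes 7 are Hoxb genes, and the 11 include the 5 lower Hoxb genes. Of the 5 tested genes numbered 10 to 13, none of them in the Hoxb cluster, 3 were higher (Hoxa10, Hoxa11 and Hoxc13) and 0 lower. Among all genes tested 24.1% were lower and 23.3% higher, and these groupings by number were chosen after the values were seen. Some of these calls were lost when 1 library was left out. Hoxa10 was lost without Rnf40+/+ replicate 2 or 3 or Rnf40-/- replicate 2 (0.26 to 0.33, adjusted p up to 0.174 from limma), and Hoxa11 without replicate 2 or 3 of either genotype (0.43 to 0.49, adjusted p up to 0.107 from limma). Hoxd8 was lost without Rnf40-/- replicate 3 (-0.31, adjusted p = 0.075 from limma). The lower call of Hoxc5 was lost without Rnf40+/+ replicate 2 (-0.29, adjusted p = 0.0717) or Rnf40-/- replicate 2 (-0.33, adjusted p = 0.0649, both from limma).

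Paralogs of the lower Hoxb genes did not all move with them. Beside Hoxb2, the log2 fold change of Hoxa2 was -0.04 (adjusted p = 0.840 from limma), with 106, 121 and 111 normalized counts in Rnf40+/+ and 120, 112 and 97.3 in Rnf40-/- MEFs. Beside Hoxb3, Hoxa3 fell by 0.69 and Hoxd3 had -0.48 (adjusted p = 0.0973 from limma). Beside Hoxb4, Hoxc4 was lower, at -0.30 (adjusted p = 0.0205 from limma), while Hoxa4 had -0.26 (adjusted p = 0.246) and Hoxd4 -0.29 (adjusted p = 0.330, both from limma). Beside Hoxb7, Hoxa7 had 0.07 (adjusted p = 0.745 from limma), and beside Hoxb8 both Hoxc8, at -0.26 (adjusted p = 0.0184), and Hoxd8 were lower in the same limma test. The call of Hoxc4 was lost without Rnf40+/+ replicate 1 or Rnf40-/- replicate 1 or 3 (-0.28 to -0.27, adjusted p up to 0.0786 from limma), and that of Hoxc8 without Rnf40+/+ replicate 2 or Rnf40-/- replicate 1 or 2 (-0.25 to -0.21, adjusted p up to 0.0868 from limma). At number 6 the order was the opposite, since Hoxc6 stood at 1537, 1526 and 1493 in Rnf40+/+ and 586, 619 and 626 in Rnf40-/- MEFs whereas Hoxb6 was not called.

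The difference between a Hoxb gene and its paralog was tested in 17 pairs by the exact permutation test, two-sided, of the log2 ratio in each library. The ratio did not overlap between genotypes in 6 of the 17 pairs. Over all 90352781 pairs of tested genes on different chromosomes, not matched for level, this held for 57.9%. These 6 pairs were Hoxb2 to Hoxa2 (change of -1.17), Hoxb4 to Hoxa4 (-0.50), Hoxb4 to Hoxc4 (-0.46), Hoxb5 to Hoxc5 (0.52), Hoxb6 to Hoxc6 (1.41) and Hoxb7 to Hoxa7 (-0.96), each with p = 0.1 and an adjusted p = 0.283 over the 17 pairs by this exact test. The largest, Hoxb6 to Hoxc6, moved from -1.42, -1.31 and -1.31 to 0.12, 0.03 and 0.04. Hoxb3 with Hoxa3 and Hoxb8 with Hoxd8 changed by 0.06 and 0.000076, but with 3 libraries a group these small differences do not show that the genes responded alike.

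**Figure D5:**
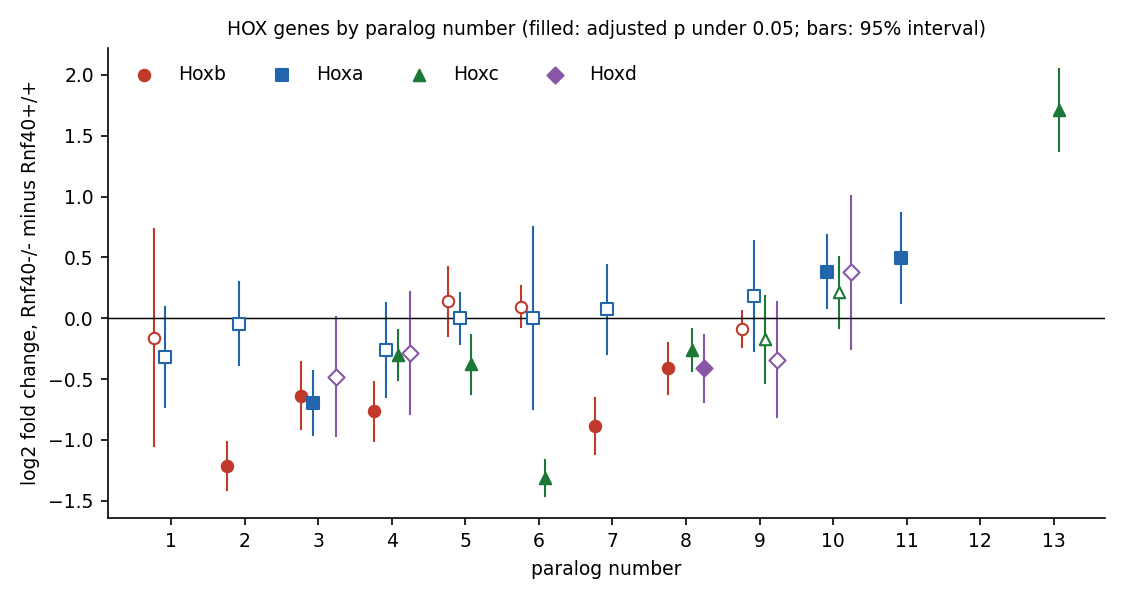
Log2 fold change (Rnf40-/- minus Rnf40+/+, limma) of the 31 tested HOX genes against paralog number, with red circles for Hoxb, blue squares for Hoxa, green triangles for Hoxc and purple diamonds for Hoxd, filled for an adjusted p under 0.05 and with 95% intervals as bars. Hoxb2, Hoxb7 and Hoxb4 lie below their paralogs of the same number, Hoxc6 lies far below Hoxb6, and filled symbols above 0 occur at numbers 10, 11 and 13, where no Hoxb gene was tested.

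Genes that act with or upstream of the Hoxb genes were described by lists from general knowledge. Among 9 TALE cofactors, which bind DNA jointly with HOX proteins, 3 were higher and 5 lower (median -0.24). Meis1, the cofactor gene with the largest fall, had -0.95 (adjusted p = 7.26e-06) and Pbx4 rose by 0.67 (adjusted p = 0.0174, both from limma), a call lost without Rnf40-/- replicate 2 (0.65, adjusted p = 0.0545) or 3 (0.62, adjusted p = 0.0641). Retinoic acid switches on 3′ HOX genes through its receptors, and of 15 tested genes of its pathway 3 were higher and 5 lower (median -0.30). Crabp1, which binds retinoic acid in the cytoplasm, fell by 3.41 (adjusted p = 1.62e-05), from 2329, 2574 and 8286 to 452, 257 and 354 normalized counts, and by 2.82 (adjusted p = 1.24e-08) without the high Rnf40+/+ replicate 3. By contrast, Stra6, which takes up retinol, rose by 2.84 (adjusted p = 0.00276, all from limma), but from at most 2.40 normalized counts in Rnf40+/+ MEFs.

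Of 9 tested MLL and Trithorax genes, which keep HOX genes active, 4 were higher and 4 lower (median -0.01). Mll1, a methyltransferase required for HOX expression, rose by 0.76 (adjusted p = 3.68e-06), and Psip1, which tethers MLL complexes to chromatin, fell by 1.20 (adjusted p = 1.55e-06, both from limma). Of 20 Polycomb genes 5 were higher and 7 lower (median 0.016), with Cbx7 rising by 1.05 (adjusted p = 0.00198) and Phf19 falling by 1.23 (adjusted p = 0.0183, both from limma). Phf19 was no longer called without Rnf40+/+ replicate 1 (-0.76, adjusted p = 0.063) or without Rnf40-/- replicate 3 (-1.04, adjusted p = 0.0764, both from limma). Ezh2, a Polycomb methyltransferase of histone H3, fell by 1.17 (SE 0.13, adjusted p = 2.35e-05 from limma). Its paralog Ezh1 rose by 0.45 (SE 0.11, adjusted p = 0.00509 from limma). The study reports Ezh1 mRNA as unaffected, from its RNA-seq and qRT-PCR, and EZH1 protein as lower by western blot. Ezh2 and Ezh1 were each called with any library left out. Of 4 tested genes among other HOX regulators, Nr6a1 was higher (0.35, adjusted p = 0.0382), Egr2, an activator of Hoxb2 in the hindbrain, was lower (-1.39, adjusted p = 0.00128, both from limma), and Cdx4 was listed at 0 in every library. The call of Nr6a1 was lost with any library but Rnf40+/+ replicate 1 left out (0.32 to 0.37, adjusted p up to 0.103 from limma). The retinoic acid and TALE lists had medians below that of all genes, and the other lists here had medians near it. Within each list genes moved both ways. No list was tested as a set, and among all genes tested 24.1% were lower and 23.3% higher.

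The genes around the cluster were described too. Of 11 neighbours and cluster RNAs, 7 have a row and 3 were tested. Skap1, an adaptor gene of T cells that lies beyond the Hoxb1 end, had 45.4, 40.8 and 41.5 normalized counts in Rnf40+/+ and 99.9, 66.8 and 68.9 in Rnf40-/- MEFs, and rose by 0.85 (SE 0.22, adjusted p = 0.00737 from limma), or by 0.66 (adjusted p = 0.0503) without Rnf40-/- replicate 1. Snx11 and Cbx1 had log2 fold changes of -0.02 and 0.02. Mir196a-1, between Hoxb13 and Hoxb9, had 23 reads in Rnf40+/+ and 15 in Rnf40-/- MEFs, and Mir10a, inside the Hoxb4 locus, had 0 and 1, but mRNA libraries do not measure mature miRNAs. Of 14 tested genes of limb and axial position 3 were higher and 2 lower (median 0.09), with Meox2 rising by 1.39 and Meox1 falling by 0.87 (adjusted p = 0.000198 and 0.0136 from limma). Meox1 was lost without Rnf40+/+ replicate 2 (-0.67, adjusted p = 0.0657 from limma).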

How the data were processed

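mRNA of 3 Rnf40+/+ and 3 Rnf40-/- MEF libraries was measured by RNA-seq. Per the labels and methods, the authors mapped reads to the mouse transcriptome (mm9). The submitters' processing notes name Bowtie2 (2.1.0) and DESeq (1.14.0). Each deposited signal value is a read number over the size factor of the library. All values (100%) were whole multiples, within 0.01, of the step of 1 read, so the reads could be recovered. Reads of near-identical HOX sequences may be split between genes, and counting rules are not given in the sources used here.

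Groups were taken from the sample titles. Genes were kept with filterByExpr of edgeR (4.0.16) on the recovered reads, leaving 16378 of 29955, and tested with limma (3.58.1, lmFit and eBayes with trend) on log2(normalized count + 1) with no term besides genotype. P-values were adjusted by Benjamini-Hochberg over these genes. The added 1 understates fold changes of genes with few reads. The test was tried on simulated data first. Ratios of 2 genes were tested in Python (3.11.15) with scipy (1.17.1). Positions and lengths are from GENCODE M1 on NCBIM37 (mm9), promoters from RefSeq on GRCm38.p6, and no coordinates were moved between builds. DESeq2 (1.42.0) and edgeR on recovered reads, other scalings, filters and pseudocounts, the replicate block, each library left out and coding length were alternatives.

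Members and gene lists were chosen with earlier results of these data known. Named genes were all members, Rnf40, the largest rise and fall of each other list, and paralogs of called members. Vim, Ddx3y, Eif2s3y, Uty, Kdm5d, Actc1, Ezh1, Ezh2, Hoxa10, Hoxc5, Snx11 and Cbx1 were added after values were seen. Replicate pairs differed by more than sampling noise (chi-square per gene of 5.33 or more), so none was a copy of another library. Repeat libraries of the same culture could differ in this way too, and were not tested for.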

Additional observations from a re-analysis of the deposited data

How the results depend on the processing

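The 5 lower and 0 higher Hoxb genes were counted again under each of 16 alternatives of scaling, filter, pseudocount, tool, block and left-out library, with 5 and 0 each time. By the criteria of the study, applied to limma values, 1 member, Hoxb2, was lower. Of 143 log2 fold changes of single members under these alternatives, 141 kept their direction and their side of the threshold. Hoxb1 changed sign when a library was left out, with a range of -0.40 to 0.12, from 0.12 without Rnf40+/+ replicate 2 and 0.0034 without Rnf40-/- replicate 2, and the cause was not tested. With coding length in place of exon length, shares in Rnf40+/+ MEFs were 8.44% for Hoxb2, 9.45% for Hoxb3, 6.85% for Hoxb4, 12.0% for Hoxb6 and 8.70% for Hoxb7, so that Hoxb6 passed Hoxb3, Hoxb7 passed Hoxb2 and Hoxb4 passed Hoxb5. Leaving out each library in turn, chosen after seeing the data for this result and for named genes outside the cluster, gave 6 to 7 separate neighbour pairs.

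The labels do not say whether the same replicate number pairs libraries of both genotypes. Deviations of same-numbered libraries correlated by 0.0118, 0.0174 and 0.0212, and those of other pairs between genotypes by -0.0531 to 0.0371. With so few libraries this does not settle whether they were paired. With the replicate block as a term, 5 Hoxb genes were lower and 0 higher, and over all genes 4196 were lower and 4021 higher. Depth limits Hoxb1 and Hoxb13, while the other members had 206 reads or more in every library.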

Other observations

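Markers of other cell types were described beside the Hoxb values. Of 5 endothelial markers 3 were higher and 1 lower, with Cdh5, a junction protein of vessels, at 2.39, 5.10 and 0.80 normalized counts in Rnf40+/+ and 31.6, 39.7 and 23.6 in Rnf40-/- MEFs, and Emcn lower (log2 fold change -1.15, adjusted p = 0.0023 from limma). Of 5 tested macrophage and blood markers Ptprc was higher (1.37, adjusted p = 0.00012) and Lyz2 lower (-1.18, adjusted p = 0.000167, both from limma). Cldn4 was the 1 epithelial marker of 2 tested that was higher (1.68, adjusted p = 0.012 from limma), 0 of 2 neural markers were called, and Des, the 1 muscle marker tested, was lower (-2.38, adjusted p = 0.000486 from limma), with 431 normalized counts in Rnf40+/+ replicate 1 and 126 and 114 in the other two Rnf40+/+ libraries. Col1a2 had the largest fall of the fibroblast markers (-2.26, adjusted p = 7.63e-09 from limma). Xist, the 1 gene of the embryo sex list tested, had a log2 fold change of -0.14 and was not called. The Y-linked genes Ddx3y, Eif2s3y, Uty and Kdm5d had too few reads for a test. All were highest in Rnf40+/+ replicate 1, with Eif2s3y at 39.4 there and at most 2.04 elsewhere, but Uty at 20.3 against 13.6 in Rnf40+/+ replicate 3. The sex of the embryos was not tested, and Xist does not show that the groups were alike in it.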
